A study of Mus musculus with 28 samples.

Results

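The cytosolic ribosomal protein genes were followed through 27 single cells picked as Müller glial cells (MGCs) from mouse retina. Members were all genes whose symbol in the array annotation is Rpl or Rps followed by a number (with an optional a, x, y or l), Rplp0 to Rplp2, or Rpsa, and whose probe set carries that symbol alone. The rule found 46 of the 18194 genes measured, 22 of the small subunit and 24 of the large subunit, and 4 of the 46 are paralogs (Rpl3l, Rpl39l, Rps4l and Rps27l). They are covered by 100 probe sets, 23 genes by 1 probe set and 23 by several, and the brightest probe set of a gene in a given cell stood for it. Expression is given as signal, the intensity on a linear scale to which the arrays were brought by scaling.

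Cytosolic ribosomal proteins form the small and the large subunit of the ribosome together with the ribosomal RNAs. Their mRNAs are among the most abundant in most mammalian cells, and nearly all of them begin with a C followed by a run of pyrimidines, through which the TOR kinase controls their translation as a group. A few members have paralogs restricted to muscle or testis, which gives a contrast within the family. In MGCs, which react to the loss of photoreceptors by gliosis, the family reports on the machinery for making protein.

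The study set MGCs from mice losing their photoreceptors against MGCs from healthy mice. Rhod-ko mice (strain C57/BL6) lack Rhodopsin, the rod pigment, and gave 5 cells at each of 2 ages, 25 weeks and 8 weeks. The rd1 mice (strain FVB), which carry a mutation in the beta subunit of the rod cGMP phosphodiesterase, gave 5 arrays at 5 weeks and 5 cells at postnatal day 13 (P13). Adult WT mice (C57/BL6, labelled as older than 25 weeks) gave 5 cells, and congenic FVB mice (FVB.129P2-Pde6b+Tyrc-ch/AntJ) at P13, which carry a working copy of the phosphodiesterase gene, gave 3 cells. All cells were taken from dissociated retina and picked by eye. The adult WT arrays come from an earlier study of the same laboratory. By the labels adult WT mice also differ in age from the Rhod-ko and rd1 mice, though the study's text gives a lower minimum age for them. They differ from the rd1 mice in strain as well. Condition, age and study therefore cannot be told apart in comparisons with adult WT, nor can strain in those of rd1 cells. No animal is named for any cell. Each condition is therefore 1 sample of several cells, no test between conditions was run, and a difference of 2-fold between group medians (after raising signals below 1000 to 1000) is a rule of size. The number of arrays limits the precision. The rd1 arrays A5 and A6 from 5 weeks agreed almost completely (r = 0.989, against 0.764 for the next best pair of arrays) and were averaged to 1 cell.

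Promoter sequences are shown because members moved in opposite directions in the Rhod-ko cells at 8 weeks, and the pyrimidine run at the transcription start is the element that the family is known to share. Each line gives 20 bases before and 10 bases from an annotated start (RefSeq, GRCm38.p6), written 5′ to 3′ on the strand of the gene. Capitals mark a run of at least 6 pyrimidines that opens with a C. Rpl35, Rpl27a, Rpl38 and Rpl41 were higher in 8-week Rhod-ko cells than in adult WT, Rps18, Rps3 and Rpl27 were lower, Rpl7a was low in the same cells, and Rpl39l is the testis paralog of Rpl39.
Rpl35 (chr2:39005122-39005151, minus strand): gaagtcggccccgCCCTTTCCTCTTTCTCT
Rpl27a (chr7:109519175-109519204, plus strand): cgcgagacttcgtgagCTCCTCCCTTTTCC
Rpl38 (chr11:114668560-114668589, plus strand): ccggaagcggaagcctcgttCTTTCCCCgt
Rpl41 (chr10:128549159-128549188, minus strand): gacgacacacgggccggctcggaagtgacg
Rps18 (chr17:33955656-33955685, minus strand): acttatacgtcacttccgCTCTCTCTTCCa
Rps3 (chr7:99483700-99483729, minus strand): gaacacttgcaagggtcgccgcgctgcgcg
Rpl27 (chr11:101442225-101442254, plus strand): ccggaacgctctgttcctgtctgctgctcg
Rpl7a (chr2:26910787-26910816, plus strand): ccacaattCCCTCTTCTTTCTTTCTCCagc
Rpl39l (chr16:10170208-10170237, plus strand): cctagctcccaggCCTTTCCggatttccgg
A run of this kind was searched on the strand of the gene within 20 bases on either side of the start. It was present in 28 of the 48 promoters of members (58.3%) and in 29.4% of the 32851 promoters in the table. Counted by gene, with a run at any of its starts, it was present in 27 of the 40 members with a promoter entry (67.5%). The run was present in 11 of 16 members higher in 8-week Rhod-ko cells than in adult WT, in 3 of 6 lower members and in 13 of 18 others. It therefore stood beside starts of all 3 kinds. A match is a description of letters, and an annotated start can lie some bases from the start used in these cells.

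Before the results, 3 of the adult WT arrays have to be set apart. In 2 ranges of consecutive probe set numbers, which hold 10100 probe sets (22.4% of the array), cells MG1, MG16 and MG22 correlated with the mean of the other conditions at r = 0.27 to 0.33, against 0.51 to 0.78 for the other 24 cells. Outside the ranges the same 3 cells gave r = 0.56 to 0.66, against 0.49 to 0.76 for the others. With one another the 3 cells correlated at r = 0.46 to 0.49 in the ranges and 0.42 to 0.45 outside. Of 103 probe sets with a signal of at least 5000 in every cell outside adult WT, 39 lie in the ranges. Of the 103, 22 were below 1000 in all 3 cells, and 21 of these 22 lie in the ranges. Among the ribosomal protein genes, 14 have all their probe sets in the ranges, 14 have some and 18 have none. The counts against adult WT are therefore also given with only MG15 and MG3 as adult WT cells, and over the 32 members that have a probe set outside the ranges, with single genes where the call changed. The ranges and these comparisons were chosen after the values were seen, so the figures for the ranges describe the pattern and do not test it. The cause of the pattern was not tested.

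**Figure D1:**
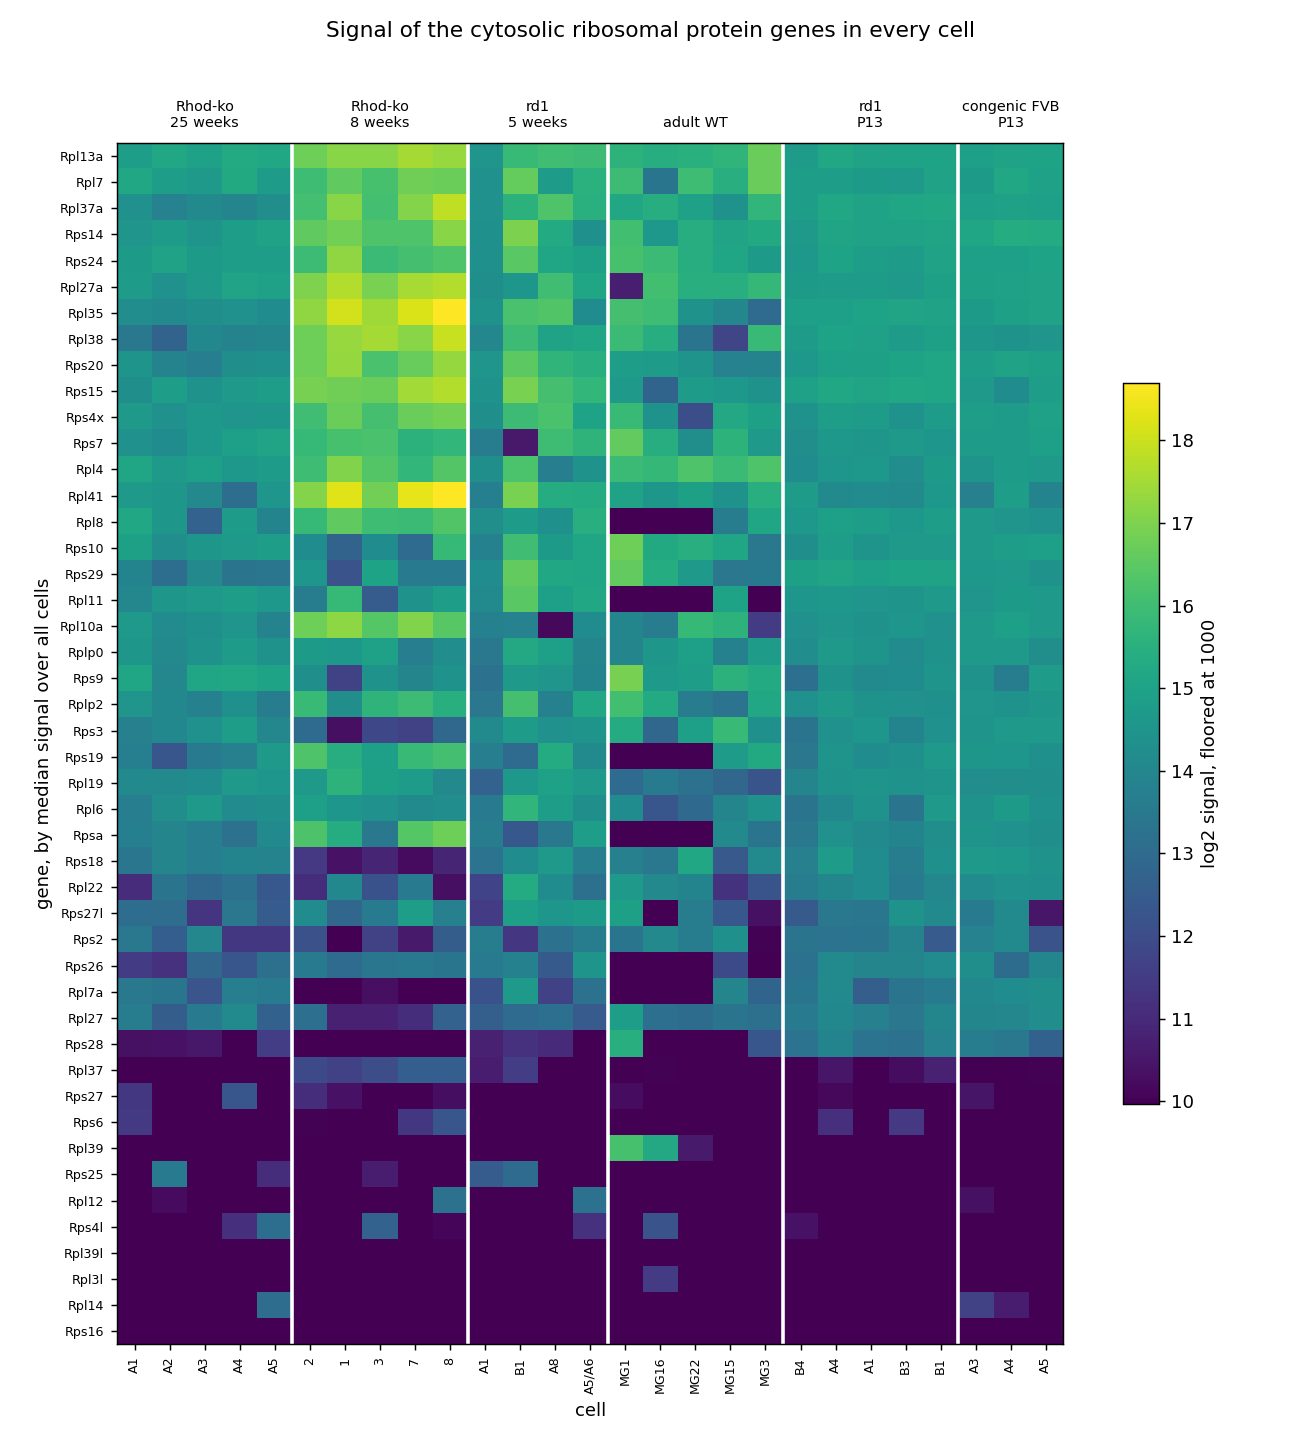
Log2 signal (signals below 1000 raised to 1000) of the 46 ribosomal protein genes (rows, ordered by median signal) in each of the 27 cells (columns, by condition). The upper rows are bright in nearly every cell, the lowest rows are dark in nearly every cell, and Rpl8, Rps19, Rpsa, Rpl11 and Rps26 are dark in adult WT cells MG1, MG16 and MG22. Rpl11 and Rps26 are also dark in MG3.

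The family split into genes that were on nearly everywhere and a small set that was off nearly everywhere. At a signal of at least 2000, 19 of the 46 members (41.3%) were on in all 27 cells, against 66 of all 18194 genes (0.363%). The members with the highest median signal over all cells were Rpl13a (39976), Rpl7 (36826), Rpl37a (35839), Rps14 (34301), Rps24 (32760) and Rpl27a (31598). Rpl13a, a large subunit protein that also acts in translational silencing by the GAIT complex, was between 23492 and 187121 in all 27 cells. Rpl27a was below 2000 in 1 cell, adult WT MG1 (1675).

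The members that were off form the other end. Rps16, a small subunit protein, did not pass 292 in any cell, and Rpl39l did not pass 514. Another 10 members were below 2000 in more than 13 of the cells: Rpl14, Rpl3l, Rpl12, Rps4l, Rps25, Rps6, Rpl39, Rps27, Rpl37 and Rps28. Rps6, the small subunit protein that S6 kinase phosphorylates, was on in 5 cells, with a highest signal of 5018 in Rhod-ko cell 8 at 8 weeks. These are low readings of the probe sets used, and a low reading does not show that the mRNA was missing. Probe sets that list several symbols were left out, and their part in these readings was not tested.

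Rps28 and Rpl37 were on most often in some conditions. Rps28, a small subunit protein, was on in all rd1 P13 cells (9973, 15171, 9953, 9693 and 14656) and in all congenic FVB P13 cells (12813, 11332 and 6570). In the adults 1 of 5 Rhod-ko cells had it on at 25 weeks (2973), none of 5 at 8 weeks (the highest was 804), 2 of 4 rd1 cells at 5 weeks (2378 and 2120) and 2 of 5 adult WT cells (44444 and 5098). Retinas at P13 thus gave Rps28 in 8 of 8 cells, while the Rhod-ko cells at 25 weeks, the rd1 cells at 5 weeks and the adult WT cells were on in part. Age goes only in part with the array range and the markers described below. The highest signal of any gene was also low in Rhod-ko cells at 25 weeks (46944 to 55308). The rd1 P13 cells B4, A4 and B3 had 15, 15 and 17 MGC markers on. They had 1, 3 and 1 vascular markers and 7, 9 and 9 rod markers on. The part of age, array range and cell type in Rps28 was not tested. Rpl37, a zinc-binding large subunit protein, had all 5 Rhod-ko cells on at 8 weeks (3825, 3301, 4179, 6114 and 6136). It lay between 145 and 500 in Rhod-ko cells at 25 weeks and between 292 and 1024 in adult WT cells, so the 8-week cells did not overlap with either. The rd1 cells at 5 weeks had 1573, 3007, 228 and 559, with cell B1 on and just below the lowest 8-week Rhod-ko cell, and the P13 cells reached 1724.5 at most.

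The paralogs behaved differently from one another. Rpl3l, the striated muscle paralog of Rpl3, was on in adult WT cell MG16 alone (2896) and reached 687 at most elsewhere. That cell is one of the 3 set apart, and the probe sets of Rpl3l lie in the ranges. Rps4l, a gene similar to Rps4x, was on in 5 cells from 4 conditions, at 2243 and 8931 in Rhod-ko cells A4 and A5 at 25 weeks, 6693 in Rhod-ko cell 3 at 8 weeks, 2397 in the averaged rd1 cell at 5 weeks and 4753 in adult WT cell MG16. Rps27l, a p53 target, was on in 24 of 27 cells, while its partner Rps27 was on in 3 cells. Rpl39, the partner of Rpl39l, was at 73186 in adult WT cell MG1 and 38480 in MG16, and did not pass 1542 in any other cell. Rpl39 has no probe set in the ranges. Rpl3, Rpl10, Rpl10l, Rpl36a, Rpl36al, Rplp1 and Rpl5 were not analysed here.

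Rhod-ko cells at 8 weeks gave the largest part of their signal to the family as deposited, though not after quantile normalization, where P13 cells reached higher shares. The members' share of the summed signal of all genes was 2.88%, 2.74%, 2.75%, 3.16% and 2.98% in Rhod-ko cells at 25 weeks. It was 5.99%, 7.02%, 5.75%, 8.11% and 9.80% in Rhod-ko cells at 8 weeks and 2.49%, 4.71%, 3.73% and 3.70% in rd1 cells at 5 weeks. Adult WT cells gave 3.99%, 2.89%, 2.69%, 3.22% and 3.59%. Every Rhod-ko cell at 8 weeks was thus above every other cell of the study. At P13 the share was 2.97% to 3.90% in rd1 cells and 3.61% to 4.08% in congenic FVB cells.

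The share does not depend on the scaling of an array, but it depends on the range of signals that the array spans. Over the probe sets outside the ranges the share was 2.59% to 3.06% in Rhod-ko cells at 25 weeks, 6.15% to 10.5% in Rhod-ko cells at 8 weeks and 3.25% to 5.14% in adult WT cells, which leaves the order of the groups in place. After quantile normalization, which gives all arrays the same range, it was 3.59% to 3.99% in Rhod-ko cells at 25 weeks, 4.02% to 4.95% in Rhod-ko cells at 8 weeks and 3.04% to 3.66% in adult WT cells. The 8-week cells were then still above both other groups, but rd1 P13 cells (4.28% to 6.04%) and congenic FVB P13 cells (4.8% to 6.58%) reached higher shares.

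The number of members that were on did not follow the share. Rhod-ko cells had 34 to 38 members on at 25 weeks and 30 to 35 at 8 weeks, rd1 cells at 5 weeks had 34 to 36 and adult WT cells had 28 to 34. The P13 cells had 35 or 36 members on in rd1 and 34 to 36 in congenic FVB. Every cell had at least 28 of the 46 members on. The higher share in Rhod-ko cells at 8 weeks came with a median of 33 members on, against 36 at 25 weeks. Of all genes a median of 11.2% were on in Rhod-ko cells at 8 weeks and 16.6% at 25 weeks. This was 12.8% in rd1 cells at 5 weeks, 12.1% in adult WT cells, and 16.1% (rd1) and 16.3% (congenic FVB) at P13. Of the 32 members with a probe set outside the ranges, adult WT cells had 21 to 23 on. Rhod-ko cells had 18 to 24 of these on at 8 weeks and 22 to 25 at 25 weeks.

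**Figure D2:**
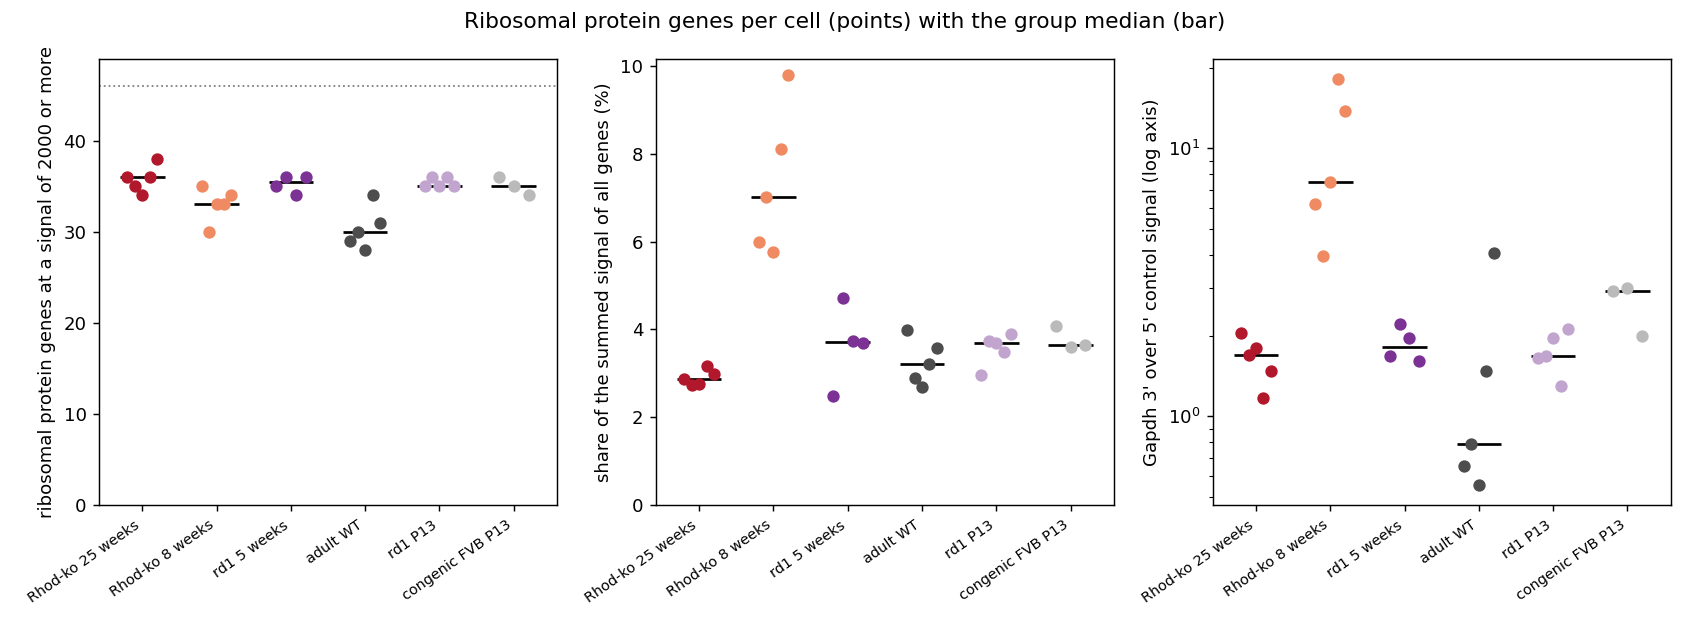
Number of the 46 ribosomal protein genes with a signal of at least 2000 (left, dotted line at 46), their share of the summed signal of all genes in percent (middle) and the ratio of 3′ to 5′ signal of the Gapdh control probe sets (right, log axis) in each cell, with the group median as a bar. Rhod-ko cells at 8 weeks lie between 5.75% and 9.80%, above all others as deposited (not after quantile normalization), and have the highest median Gapdh ratio.

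Technical measures moved with the conditions. The ratio of 3′ to 5′ signal of the Gapdh control probe sets, which is high where cDNA is short or the reverse transcription stopped early, was 1.17 to 2.05 in Rhod-ko cells at 25 weeks, 3.95 to 18.2 in Rhod-ko cells at 8 weeks, 1.61 to 2.22 in rd1 cells at 5 weeks and 0.554 to 4.06 in adult WT cells. The highest signal of any gene was 32359 to 55308 in 14 cells (all Rhod-ko cells at 25 weeks, all P13 cells and rd1 cell A1 at 5 weeks) and 78549 to 756546 in the other 13. In the first set of cells 6 to 29 members were within 2-fold of the brightest gene, in the second 0 to 11. Ribosomal protein genes therefore sat near the top of the range of signals in the 14 arrays. The part of either measure in the differences below was not tested.

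Markers of MGCs and of other cell types were also read, since single cells were picked by eye. Of 19 MGC markers 14 to 19 were on in the adult cells. In all 3 congenic FVB P13 cells and in rd1 P13 cells A1 and B1, 3 to 8 MGC markers and 7 to 9 of 10 measured vascular markers were on, which goes against their label. Other cells had at most 3 vascular markers on. Rhod-ko cell 7 at 8 weeks had 7 of 16 microglial markers on, and all others at most 1. Of 13 rod markers 1 or 2 were on in Rhod-ko cells at 25 weeks, 2 to 8 in Rhod-ko cells at 8 weeks, 0 to 3 in rd1 cells at 5 weeks and 1 to 3 in adult WT cells, and at P13 7 to 9 in rd1 and 5 to 10 in congenic FVB. Without cell 7, 19 members were higher and 6 lower in Rhod-ko at 8 weeks than in adult WT.

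The first comparison asks how MGCs of Rhod-ko mice at 8 weeks, while rods are being lost, differ from adult WT MGCs. Of the 46 members 19 were higher and 7 lower by 2-fold or more, against 6.17% and 5.12% of all genes. Expressed genes moved often in this comparison: of the 1513 genes on in more than 13 of the cells, 41.6% were higher and 28.5% lower, and of the 34 members so expressed 18 (52.9%) were higher and 7 (20.6%) lower. The median difference of the members was 0.44 on the log2 scale and 0 over all genes as deposited, and for the members it was 0 after quantile normalization and after scaling to the 90th percentile. Of the members 8 had both medians below 1000 and so a difference of 0. Over the 34 members on in more than 13 of the cells the median was 1.36, against 0.45 over all genes so expressed. All 19 higher members stayed above 0 and all 7 lower members below 0 under both scalings, and 13 and 17 of the 19 stayed past 2-fold.

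Rpl35, Rpl41 and Rpl38, all of the large subunit, were among the genes that stood apart. Rpl35, which sits at the exit of the peptide tunnel, had signals of 154468, 283209, 178378, 298769 and 418340 in Rhod-ko cells at 8 weeks, against 70565, 65168, 22151, 16540 and 8279 in adult WT cells. The groups did not overlap, and the difference of medians was 3.68 on the log2 scale (2.39 after quantile normalization). Rpl41, which encodes one of the shortest eukaryotic proteins, had 139110, 314289, 116417, 337953 and 423803 in 8-week Rhod-ko cells, against 32897, 24476, 30861, 22125 and 45405 in adult WT cells, a difference of 3.35 (2.07). Rpl38, which mouse embryos need for translating some Hox mRNAs, had 110539, 165987, 188054, 145039 and 254704 in 8-week Rhod-ko cells, against 62392, 43622, 10262, 3526 and 58600 in adult WT cells, a difference of 1.93 (0.57). In all 3 genes the lowest Rhod-ko cell was above the highest adult WT cell. The 3 differences were 4.60, 3.31 and 3.53 with MG15 and MG3 as adult WT cells, and 3.68, 4.60 and 1.93 outside the ranges.

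Small subunit genes were higher as well. Rps20 had 110608, 161474, 74238, 104090 and 160936 in Rhod-ko cells at 8 weeks, against 28984, 27734, 22751, 14776 and 15039 in adult WT cells, a difference of 2.28. Rps15 had 121152, 114029, 108916, 182421 and 209581 in 8-week Rhod-ko cells, against 26168, 6971, 28387, 25439 and 21737 in adult WT cells, a difference of 2.25. Both groups of cells were apart in both genes, and the differences were 2.89 and 2.37 with MG15 and MG3 alone. Rpl10a, the protein of the mobile L1 stalk of the large subunit, was also apart (85558 to 151313 in Rhod-ko cells at 8 weeks, 2884 to 57500 in adult WT cells), with a difference of 2.79 (3.21 with MG15 and MG3).

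In all, 15 members had every Rhod-ko cell at 8 weeks above every adult WT cell, against 2.83% of all genes. These were Rpl8, Rpl35, Rps26, Rpl41, Rpl10a, Rps20, Rps15, Rpl27a, Rpl37, Rpl38, Rpl37a, Rps4x, Rpl19, Rpl13a and Rps14, with differences between 6.0 and 1.28, and between 4.60 and 0.98 with MG15 and MG3 as adult WT cells, where Rpl13a (0.98) alone was under 2-fold. Rpl27a, Rpl38, Rpl37a, Rps4x, Rpl13a and Rps14 were at 0.18 to 0.74 after quantile normalization, under 2-fold. Rps18 and Rps9 had every Rhod-ko cell below every adult WT cell, against 0.643% of all genes.

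The 4 largest differences rest on the adult WT cells set apart. Rpsa, the laminin receptor and small subunit protein, had 77896, 42473, 11209, 86766 and 112360 in Rhod-ko cells at 8 weeks, against 275, 22, 102, 18273 and 10300 in adult WT cells MG1, MG16, MG22, MG15 and MG3. Rpl8, which reaches towards the peptidyl transferase centre, had 57890, 97075, 64007, 61111 and 81953 in 8-week Rhod-ko cells, against 240, 126, 274, 13123 and 35316 in the adult WT cells. Rps19, the gene most often mutated in Diamond-Blackfan anaemia in humans, had 80518, 43379, 30191, 58600 and 69954 in 8-week Rhod-ko cells, against 573, 39.8, 464, 28472 and 39337 in the adult WT cells. In each gene the low adult WT values were those of MG1, MG16 and MG22, and the other 2 cells were on. With the adult WT median, which lay below 1000, raised to 1000, the differences of medians were 6.28 for Rpsa, 6.0 for Rpl8, 5.87 for Rps19 and 4.48 for Rpl11, a protein that binds Mdm2 when ribosome assembly fails. With MG15 and MG3 as adult WT cells they were 2.51, 1.57, 0.81 and 1.94, so that Rps19 was under 2-fold and its groups overlapped. Rpl11 was at 33489 in MG15, among the Rhod-ko cells at 8 weeks (5870 to 57886.5), and at 837 in MG3, raised to 1000. All probe sets of these 4 genes, and of Rps26 (3.44, 2.46 with MG15 and MG3), lie in the ranges.

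The counts over the family changed less than these 4 genes. With MG15 and MG3 as adult WT cells 19 members were higher and 6 lower, against 4.92% and 10.1% of all genes, and 17 of the 19 higher members stayed past 2-fold. Outside the ranges 11 of 32 members were higher and 6 lower, against 4.92% and 4.17% of 14401 genes, and all 11 of the higher members measured there stayed past 2-fold. The median over these 32 members was 0.05.

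The lower genes are fewer. Rps18, in the head of the small subunit, had 2734, 1339, 1866, 1201 and 1866 in Rhod-ko cells at 8 weeks, against 13879, 11145, 36862, 5444 and 18166 in adult WT cells, a difference of -2.89. Rps3, which lines the mRNA entry channel, had 8193, 1273, 3706, 3269 and 7712 in 8-week Rhod-ko cells, against 41257, 7440, 30595, 59701 and 20929 in adult WT cells, a difference of -3.05 with 1 adult WT cell (MG16) among the Rhod-ko values. Rpl27 had 9151, 1729, 1744, 2188 and 6772 in 8-week Rhod-ko cells, against 29792, 9032, 8394, 10200 and 9436 in adult WT cells, a difference of -2.11. These 3 genes were lower under each scaling, with MG15 and MG3 alone (-2.41, -3.25 and -2.17) and outside the ranges (-2.89, -3.05 and -2.97). Rps2 (-2.02), Rpl22 (-1.74), Rps29 (-1.07) and Rps10 (-1.06) were within 2-fold of adult WT cells MG15 and MG3, at -0.54, 0.44, 0.15 and -0.09. Rpl7a, a large subunit protein, was low in the 8-week cells too, at 736, 391, 1294, 885 and 910, against 32.6, 1009 and 135 in adult WT cells MG1, MG16 and MG22 and 15779 and 6968 in MG15 and MG3. All its probe sets lie in the ranges. The difference was -0.01 over all adult WT cells and -3.39, lower by the rule, with MG15 and MG3.

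**Figure D3:**
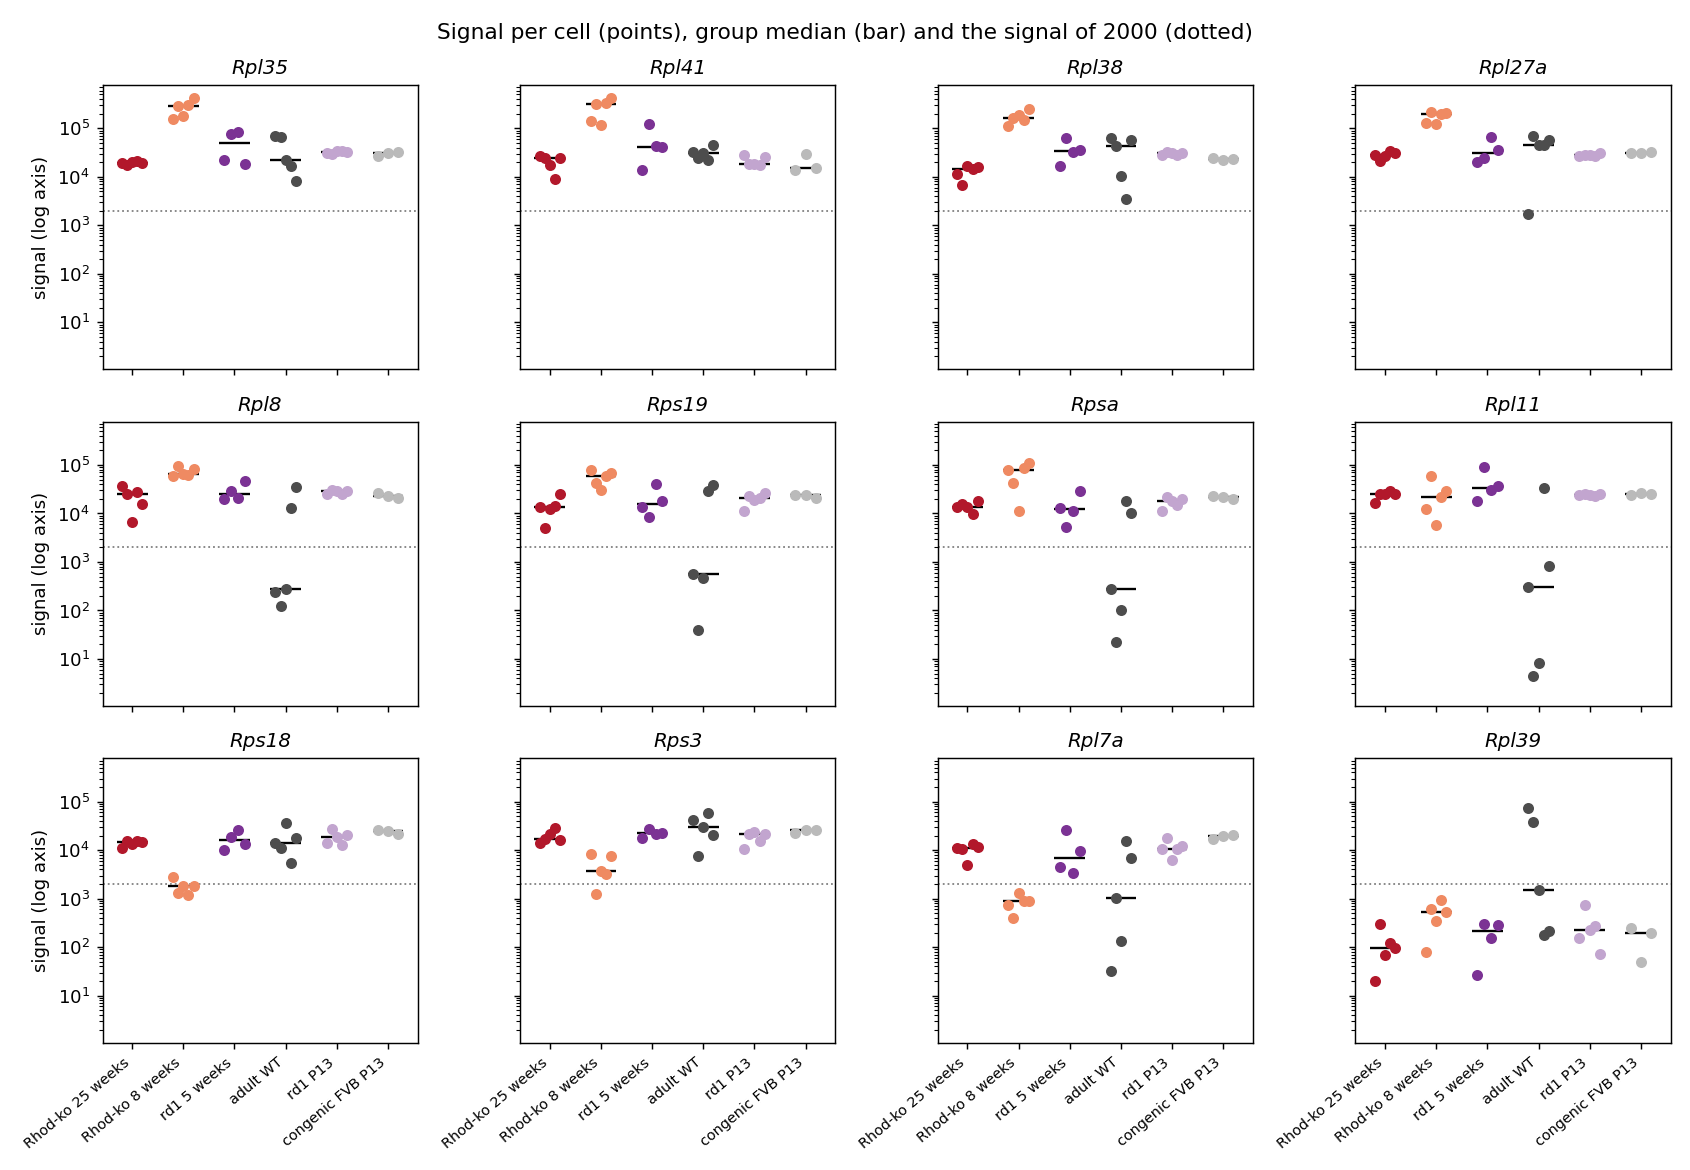
Signal of 12 ribosomal protein genes in each cell (points, log axis), with the group median (bar) and the signal of 2000 (dotted). Rpl35, Rpl41, Rpl38 and Rpl27a are, as deposited, highest in Rhod-ko cells at 8 weeks and Rps18, Rps3 and Rpl7a are lower there than at 25 weeks, while the lowest points of Rpl8, Rps19, Rpsa and Rpl11 are adult WT cells.

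Where a gene has several probe sets, they did not always move together. Of 17 members with more than 1 probe set above 2000, 9 had all of them past 2-fold in the same direction in Rhod-ko cells at 8 weeks over adult WT, and Rpl22, Rpl37a and Rps10 had probe sets called in opposite directions. For Rpl35 a probe set in the ranges had median signals of 122032 in Rhod-ko cells at 8 weeks and 141 in adult WT cells, while the brightest probe set outside them had 283209 and 22151. For Rps7 a probe set in the ranges had 57078 and 321, and one outside had 50533 and 42972. Between the Rhod-ko ages, compared below, Rpl13a and Rpl22 had probe sets called in opposite directions. In 25-week over 8-week Rhod-ko cells Rpl22 was at 0.73 by the main rule and at 2.90, higher, outside the ranges. There Rpl7 (-0.52) and Rps7 (-0.99) were under 2-fold, against -1.70 and -1.17 by the main rule. The sizes of the differences are thus a matter of the probe set for some members.

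The second comparison sets Rhod-ko cells at 25 weeks against the same adult WT cells, which also serve in the fourth, so that these comparisons are not independent. Of the 46 members 7 were higher and 8 lower, against 7.90% and 3.70% of all genes, and the median difference was 0, which became -1.19 with scaling to the 90th percentile. Of the 34 members on in more than 13 of the cells, 20.6% were higher, below the 42.4% of all genes so expressed, and 23.5% were lower, against 15.9%. The higher genes were Rpl11 (4.64), Rpl8 (4.63), Rps19 (3.77), Rpsa (3.75), Rpl7a (3.47), Rps26 (2.34) and Rpl19 (1.19), and all their probe sets lie in the ranges. Rpl7a had 11176, 10475, 4922, 13367 and 11884 in Rhod-ko cells at 25 weeks, against 32.6, 1009, 135, 15779 and 6968 in adult WT cells MG1, MG16, MG22, MG15 and MG3. Of the 2 high adult WT cells, MG15 lay above the Rhod-ko cells and MG3 among them.

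Of these 7 genes 3 stayed past 2-fold without the 3 adult WT cells. With MG15 and MG3 as adult WT cells 5 members were higher and 5 lower, against 6.08% and 7.96% of all genes. Rpl11 (2.11), Rpl19 (1.66) and Rps26 (1.37) stayed higher, while Rpl8 (0.21), Rpl7a (0.09) and Rpsa (-0.03) were near 0 and Rps19 was lower (-1.29). Outside the ranges 0 of 32 members were higher and 3 lower, against 6.33% and 2.76%. Rpl19, a large subunit protein, was the 1 member with every Rhod-ko cell at 25 weeks above every adult WT cell (0.566% of all genes), with 17622, 18010, 18873, 26477 and 23860 in Rhod-ko, against 8272, 12058, 9808, 7386 and 4797 in adult WT. Its difference was -0.36 with scaling to the 90th percentile.

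The lower members at 25 weeks were Rpl38 (-1.56), Rps29 (-1.29), the stalk protein Rplp2 (-1.16), Rpl4 (-1.14), Rpl7 (-1.11), Rps2 (-1.10), Rpl37a (-1.05) and Rpl22 (-1.0). Rpl4, Rpl37a and Rpl13a had every Rhod-ko cell below every adult WT cell, against 5.10% of all genes. Rpl4, which lines the peptide tunnel, had 36029, 25599, 30360, 25187 and 28036 in Rhod-ko cells at 25 weeks, against 61902, 56592, 80832, 61823 and 80988 in adult WT cells. It was lower with MG15 and MG3 alone (-1.34) and outside the ranges (-1.14). Only Rpl4 and Rpl7 of the 8 stayed past 2-fold with those 2 cells, whereas Rpl22 turned to 1.18, higher by the rule, and after quantile normalization 2 members in all were lower.

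The third comparison sets the Rhod-ko ages against each other and does not use the adult WT arrays. At 25 weeks 4 of the 46 members were higher and 21 lower than at 8 weeks, against 7.33% and 4.16% of all genes. Of the 34 members on in more than 13 of the cells, 58.8% were lower, against 23.6% of all genes so expressed, and 11.8% were higher, against 35.9%. The median difference was -0.43, and it was 0 after quantile normalization and -1.07 with scaling to the 90th percentile. The 8-week cells also serve in the first comparison, so the 2 sets of values are not independent.

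The genes lower at 25 weeks were led by Rpl35, Rpl41 and Rpl38. Rpl35 had 19421, 17790, 20556, 21578 and 18897 at 25 weeks, against 154468 to 418340 at 8 weeks, a difference of -3.87 (-1.87 after quantile normalization). Rpl41 had 26589, 24739, 17308, 8958 and 24180 at 25 weeks, against 116417 to 423803 at 8 weeks, a difference of -3.70 (-1.52). Rpl38 had 11358, 6840, 16713, 14796 and 16198 at 25 weeks, against 110539 to 254704 at 8 weeks, a difference of -3.49 (-1.93). The groups lay far apart in these 3 genes. The cells at 25 weeks were close to one another in Rpl35 and less so in Rpl41 and Rpl38. Rpl37a (-2.95) and Rpl27a (-2.81) completed the 5 largest, and Rpl27a was under 2-fold after quantile normalization (-0.76).

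Of the members 20 had every cell at 25 weeks below every cell at 8 weeks, but so had 20.5% of all genes, and 2 of the 20, Rps16 and Rpl39l, were below 2000 in every cell, where the order carries no information. Of the 21 members lower by 2-fold, 15 stayed below 0 and 9 stayed past 2-fold after quantile normalization. Those that turned were Rpl13a (0.17), Rpl7 (0.37), Rpl4 (0.07), Rpl8 (0.08), Rps24 (0.21) and Rps7 (0.27). Rpl37 kept its size under every scaling (-2.06 as deposited, -2.32 after quantile normalization, -2.38 with the 90th percentile), at signals well below the top of the range.

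The 4 members higher at 25 weeks were Rpl7a, Rps18, Rpl27 and Rps3. Rpl7a had 4922 to 13367 at 25 weeks and 391 to 1294 at 8 weeks, a difference of 3.48 with the 8-week median raised to 1000. Rps18 had 10840, 15533, 13351, 15455 and 14902 at 25 weeks, against 1201 to 2734 at 8 weeks, a difference of 3.00. Rps3 had 13844 to 29081 at 25 weeks, against 1273 to 8193 at 8 weeks, a difference of 2.19. In these 3 genes and in Rps28 (1015 to 2973 at 25 weeks, 80.4 to 804 at 8 weeks) every cell at 25 weeks was above every cell at 8 weeks, against 1.31% of all genes, while Rpl27 (2.47) had values of 5961 to 17723 at 25 weeks and 1729 to 9151 at 8 weeks. All 4 differences stayed past 2-fold under both scalings. So members of 1 complex moved in opposite directions between the same 2 groups of cells.

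**Figure D4:**
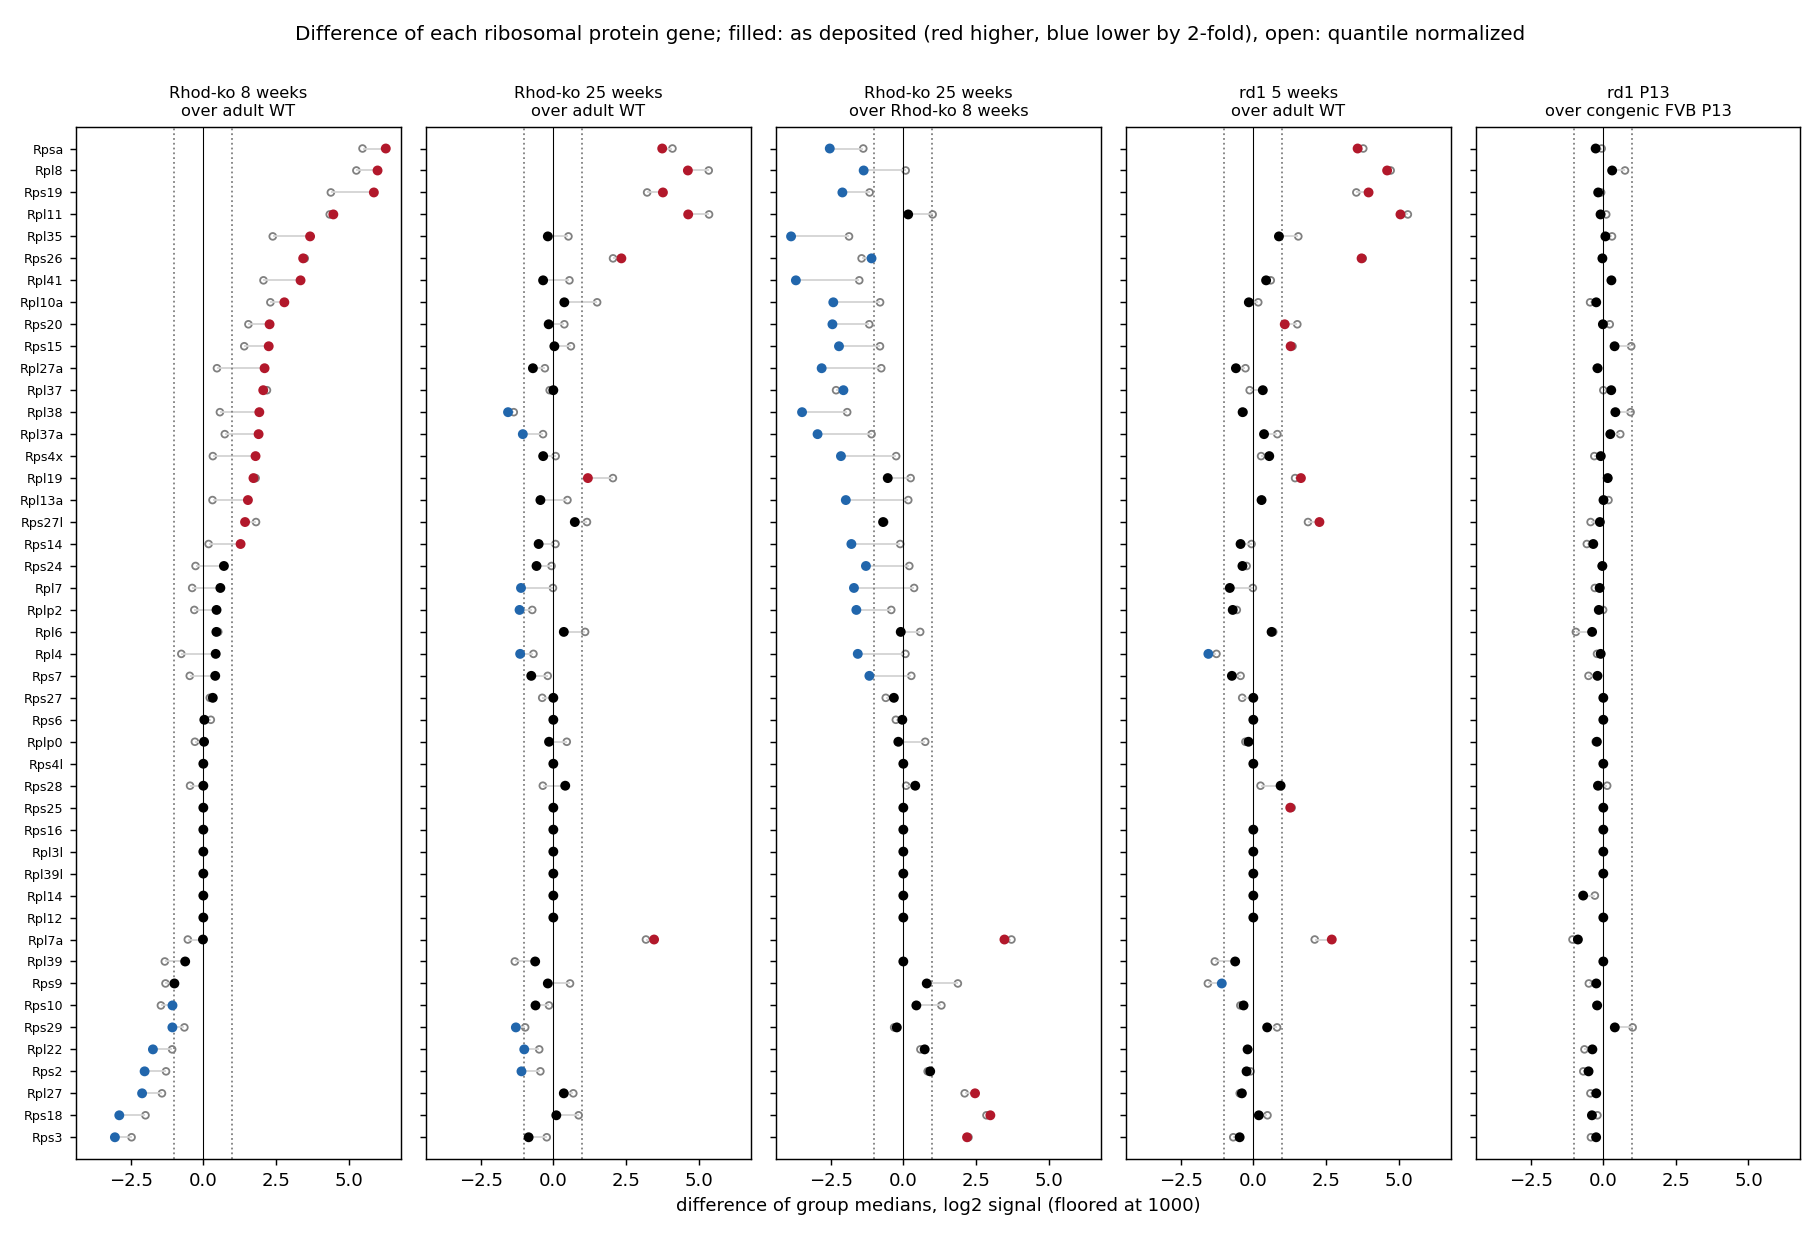
Difference of group medians on the log2 scale (signals below 1000 raised to 1000) for the 46 ribosomal protein genes in 5 comparisons, ordered by the first. Filled points are the values as deposited (red, at least 2-fold higher; blue, at least 2-fold lower) and open points those after quantile normalization. In the third panel 21 genes lie left of -1 as deposited and 6 of them cross 0 after quantile normalization, and in the fifth none passes 2-fold as deposited.

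The fourth comparison asks the same of rd1 cells at 5 weeks, when rods are gone, over adult WT cells. Of the members 11 were higher and 2 lower, against 6.35% and 4.25% of all genes. Of the 34 expressed in most cells 29.4% were higher and 5.88% lower, against 36.3% and 21.2% of all genes so expressed. The median difference was 0 as deposited and under both scalings. The largest differences were in Rpl11 (5.07), Rpl8 (4.61), Rps19 (3.97), Rps26 (3.73) and Rpsa (3.59), all with their probe sets in the ranges.

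Rps26, at the mRNA exit channel of the small subunit, had 12334, 14244, 5594 and 22990 in rd1 cells at 5 weeks, against 33.6, 111, 138.5, 3861 and 844 in adult WT cells. The groups did not overlap (0.500% of all genes), and with MG15 and MG3 as adult WT cells the difference was 2.75. With those 2 cells 12 members were higher and 3 lower, against 5.19% and 8.79% of all genes, and 7 of the 11 higher members stayed past 2-fold. Rpl11 was at 2.53, whereas Rpl8 (0.18), Rpsa (-0.19) and Rpl7a (-0.68) were within 2-fold and Rps19 was lower (-1.10). Outside the ranges 5 of 32 members were higher and 2 lower, against 5.10% and 3.29%. The paralog Rps27l was higher with both groups of adult WT cells, at 2898, 30391, 23753 and 26781 in rd1 cells, against 31494, 179, 12938, 5205 and 1320 in adult WT cells, a difference of 2.28 in overlapping groups. Rpl4 (-1.55) and Rps9 (-1.09) were lower in both, and every rd1 value of Rps9 (9543, 26364, 23489 and 15375) was below the lowest adult WT value (26651), against 2.80% of all genes.

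The fifth comparison sets rd1 cells at P13, the height of rod death, against congenic FVB cells of the same age. None of the 46 members passed 2-fold in either direction, against 4.79% higher and 6.41% lower among all genes. Of the 34 members on in more than 13 of the cells 0 passed it, against 23.7% higher and 12.1% lower among all genes so expressed. Both medians were below 1000 in 9 of the 46 members, which so had a difference of 0. The median difference of the 46 members was -0.09, and all differences lay between -0.88 (Rpl7a) and 0.41 (Rpl38). After quantile normalization 1 member was higher and 1 lower. Rpl7a, the member furthest from 0, had 10447, 17630, 6245, 10366 and 12111 in rd1 cells, against 16943, 19167 and 20517 in congenic FVB cells, with 1 rd1 cell among the congenic values.

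Small shifts without overlap were seen here. Rps15, Rps29, Rpl38 and Rps6 had every rd1 cell above every congenic FVB cell (2.90% of all genes), and Rps14, Rpl10a, Rps7 and Rpl27a had every rd1 cell below (2.17%). Rpl38 had 27523, 33079, 31516, 28012 and 30922 in rd1 cells, against 24606, 22198 and 23195 in congenic FVB cells. All but Rps6 were bright genes in a narrow range of signal, and Rps6 (47.2 to 2758 in rd1 cells, 7.5 to 46.1 in congenic FVB cells) had a difference of 0 because both medians lay below 1000, and its lowest rd1 value and highest congenic FVB value were both far below 2000. All 3 congenic cells carry vascular markers, as do rd1 cells A1 and B1, so condition and cell type cannot be told apart, and with so few cells an absence of differences was not shown.

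In each condition the members of high signal had a smaller median range over the cells than other genes of high signal. The 2 sets of genes share only a minimum median of 10000 and were not matched on level. Members also sat near the top of the range of signals in 14 of the arrays, and the adult WT range includes the 3 arrays set apart. The part of either in these values was not tested. Among members with a group median of at least 10000, the median log2 range over the cells was 0.79 in Rhod-ko at 25 weeks (30 members), 1.27 in Rhod-ko at 8 weeks (28), 2.23 in rd1 at 5 weeks (32) and 2.76 for the adult WT cells (25). Other genes at that level had 1.51, 2.80, 2.90 and 4.30 in these conditions. At P13 the range was 0.47 in rd1 (34 members) and 0.25 in congenic FVB (35), and 1.53 and 0.86 for other genes. All cells of Rhod-ko at 25 weeks agreed within 2-fold for 22 of 30 members (73.3%), against 27.1% of other genes at that level. The adult WT cells did so for 2 of 25 members (8%), against 2.58% of other genes, and Rpl4 had the narrowest range there.

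Single cells also read low in members that were bright in their neighbours. Rps7 was at 1508 in rd1 cell B1 at 5 weeks and 13024 to 65518 in the other 3. Rpl10a was at 1140 in rd1 cell A8 and 14287 to 18871 in the others. Both cells had at least 34 members on, as had the other cells of that condition. In adult WT, 25 members were on in all 5 cells, 8 in none and 13 in some. Of these 13, Rpl11, Rpl7a, Rpl8, Rps19, Rps26 and Rpsa were on in MG15, off in MG1, MG16 and MG22, and lie in the ranges, which leaves 7, against 9 in Rhod-ko cells at 8 weeks. For a gene on in 5 of 5 cells the exact 95% binomial interval (Clopper-Pearson) of the share of such cells runs from 47.8% to 100%, and for 1 of 5 cells from 0.505% to 71.6%, which covers counting error only.

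Other genes of translation were read from lists. Among ribosomal proteins that the symbol rule leaves out, Rps3a1 had 18028 to 71737 in Rhod-ko cells at 8 weeks, against 780, 202, 462, 12260 and 9719 in adult WT cells MG1, MG16, MG22, MG15 and MG3, a difference of 5.09 on the log2 scale (1.64 with MG15 and MG3). Fau, which encodes a ubiquitin-like protein fused to a small subunit protein, had 48405 to 128087 in 8-week Rhod-ko cells, against 6082 to 34554 in adult WT cells, a difference of 2.56 (3.21 with MG15 and MG3), and was lower at 25 weeks than at 8 weeks by 2.65 on the log2 scale. The groups of cells were apart in both steps of Fau, as in Rpl35 and Rpl41. In Rhod-ko cells at 25 weeks over adult WT, Rpl22l1 was at 2.65 and Rpl7l1 at 0.76, and with MG15 and MG3 they were at 0.50 and -0.55.

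Mitochondrial ribosomal proteins, the parallel family of the organelle, gave 17 higher and 3 lower of 76 in Rhod-ko cells at 8 weeks over adult WT, where 6.17% and 5.12% of all genes were so called. With MG15 and MG3 as adult WT cells they gave 11 and 5 (4.92% and 10.1% of all genes), and outside the ranges 11 and 0 of 56 (4.92% and 4.17%). Mrpl52 (5.62), Mrpl11 (3.98) and Mrpl41 (3.35) were furthest from 0, and they were at 5.69, 3.98 and 1.41 with MG15 and MG3. Of 8 elongation genes 3 were higher and 1 lower, and 2 and 0 with MG15 and MG3. Tpt1, whose mRNA also carries a pyrimidine run, had 96510 to 143558 in 8-week Rhod-ko cells, against 29.4, 34.3, 20.4, 61312 and 54460 in adult WT cells MG1, MG16, MG22, MG15 and MG3. Its difference was 6.75 over all adult WT cells and 0.90, under 2-fold, with MG15 and MG3. Of 26 initiation genes 7 were higher and 8 lower (6 and 7 with MG15 and MG3), of 31 ribosome biogenesis genes 3 and 3 (4 and 4), and of 10 genes of TOR and Myc control 1 (Rptor, 1.35) and 0 (1 and 2).

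In Rhod-ko cells at 25 weeks over adult WT, where 7.90% of all genes were higher and 3.70% lower, the mitochondrial list gave 14 higher and 4 lower, elongation 3 and 2, initiation 6 and 7, biogenesis 4 and 2, and TOR and Myc control 0 and 0. With MG15 and MG3 as adult WT cells (6.08% and 7.96%) these were 9 and 5, 3 and 3, 5 and 6, 4 and 4, and 0 and 2. In rd1 cells at 5 weeks over adult WT (6.35% and 4.25%) the counts were 13 and 6, 3 and 1, 3 and 7, 1 and 3, and 1 and 0 in the same order, and with MG15 and MG3 (5.19% and 8.79%) they were 13 and 9, 2 and 1, 2 and 5, 2 and 4, and 0 and 2. Between the Rhod-ko ages (7.33% and 4.16%), 7 mitochondrial genes were higher and 12 lower at 25 weeks, led by Mrpl52 (-4.61), elongation genes gave 0 and 3, with Tpt1 at -1.91, and the initiation, biogenesis and control lists gave 8 and 5, 4 and 3, and 0 and 1. In rd1 cells at P13 over congenic FVB (4.79% and 6.41%), where no ribosomal protein gene passed 2-fold, 17 of the 76 mitochondrial genes were higher and 9 lower, and the other lists gave 1 and 0, 2 and 3, 5 and 5, and 0 and 1. Of the genes on in more than 13 of the cells, 23.7% were higher and 12.1% lower at P13. The shares of genes so expressed are given above for the other comparisons. Emg1, a methyltransferase of ribosome biogenesis, had a difference of -3.58 in Rhod-ko cells at 8 weeks over adult WT (-1.59 with MG15 and MG3) and of -3.99 at 25 weeks (-2.0), where the Rhod-ko median was raised to 1000.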

How the data were processed

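The authors lysed single cells, reverse transcribed and tailed the RNA, amplified the cDNA by 35 cycles of PCR and hybridized it to Affymetrix Mouse Genome 430 2.0 arrays. What the authors deposited is the linear signal intensity given by MAS 5.0, brought on every array to the same trimmed mean, 500. Strong amplification and an oligo dT primer favour the 3′ ends of mRNAs, and no detection calls were used here. Of 45101 probe sets, 34958 carry 1 symbol, 932 several and 9211 none, and only the first kind was used (18194 genes). Another 110 probe sets list a ribosomal protein symbol among several and were left out. Of the 100 member probe sets, 40 carry the suffix _x_at, 26 _a_at and 3 _s_at, and these were kept. The brightest probe set of a gene in a given cell stood for the gene, which follows the study, and a gene was counted as on at a signal of 2000, the strictest threshold of those methods. Signals below 1000 were raised to 1000, and differences are of group medians on the log2 scale. A difference with a median raised to 1000 describes the medians alone and bounds neither a difference of means nor one against other cells.

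The members, companion lists and marker lists were chosen with earlier results of these data known. Genes named are those with the highest medians, the 5 largest differences each way in a comparison, those without overlap between groups, those below 2000 in most cells, the paralogs with their partners, members with a known role and the 3 leading genes of each list. Alternatives were a floor of 2000, quantile normalization, scaling to the 90th percentile, 1 probe set per gene, probe sets without a suffix, group means, a filter at 500, congenic FVB as control, leaving out cells with other markers, each array as its own cell and each cell left out in turn. Another 3 were added after the data were seen: leaving out the paralogs, adult WT cells MG15 and MG3 as control, and probe sets outside 2 number ranges. Promoters came from a RefSeq table (GRCm38.p6). Calculations used SciPy 1.17.1, NumPy 2.4.6, pandas 2.3.3 and matplotlib 3.10.9 under Python 3.11.15 and were tested on simulated data.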

Additional observations from a re-analysis of the deposited data

Results flagged for a closer look

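In 34 of 204 groups of values 1 cell lay far from the others, each time for a named gene in the cells of a condition. The rule takes a gap that chance gives in about 1 group in 20, after signals below 1000 were raised to 1000. Where only 1 cell passed 1000, the others were equal, so any excess gave the largest gap possible. The rate of 1 in 20 does not hold for such groups. Rpl12 in Rhod-ko cell A2 at 25 weeks (1206) and Rpl37 in adult WT cell MG16 (1024) are examples. How many of the 34 are of this kind was not counted. Of the 34, 11 were in adult WT, where 3 arrays stand apart in 2 ranges of probe set numbers. In Rhod-ko cells at 25 weeks the flagged values were Rpl12 in A2 (1206), Rpl14 in A5 (8726), Rpl7a in A3 (4922), Rps6 in A1 (2776.5) and Rps9 in A2 (16569). In Rhod-ko cells at 8 weeks they were Rpl12 in cell 8 (9591), Rpl7a in cell 3 (1293.5), Rps24 in cell 1 (153884), Rps25 in cell 3 (1571), Rps4l in cell 3 (6693) and Rps9 in cell 1 (3275). In rd1 cells at 5 weeks they were Rpl10a in A8 (1140), Rpl12 in the averaged cell (9766), Rpl13a in A1 (23492), Rpl19 in A1 (6763), Rps27l in A1 (2898) and Rps4l in the averaged cell (2397).

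In adult WT they were Rpl11 in MG15 (33489), Rpl13a in MG3 (106186), Rpl27 in MG1 (29792), Rpl27a in MG1 (1675), Rpl37 in MG16 (1024), Rpl3l in MG16 (2896.5), Rps15 in MG16 (6971), Rps2 in MG3 (1048), Rps26 in MG15 (3861), Rps27 in MG1 (1219) and Rps4l in MG16 (4753). All probe sets of Rpl11, Rps26, Rpl3l and Rps15 lie in the ranges, and for Rpl11 and Rps26 the low cells include MG1, MG16 and MG22. In rd1 cells at P13 they were Rpl19 (15784), Rps14 (26272), Rps26 (9681), Rps4l (1339) and Rps9 (9197), all in B4, and Rps27 in A4 (1125.5). Cell B4 was the lowest of the 5 for Rpl19, Rps14, Rps26 and Rps9.

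In 11 of the 44 named members every Rhod-ko cell at 8 weeks lay above the adult WT median and every Rhod-ko cell at 25 weeks below it. The share of all genes that do so was not counted, so the 11 cannot be set against it. Of all genes 20.5% had every cell at 25 weeks below every cell at 8 weeks. The difference between the ages in this contrast was not tested. The log2 differences from adult WT at 8 and then at 25 weeks were 1.54 and -0.44 for Rpl13a, 2.11 and -0.70 for Rpl27a, 3.68 and -0.19 for Rpl35, and 1.90 and -1.05 for Rpl37a. They were 1.93 and -1.56 for Rpl38, 3.35 and -0.35 for Rpl41, 0.59 and -1.11 for Rpl7, and 1.28 and -0.51 for Rps14. They were 0.71 and -0.58 for Rps24, 1.80 and -0.35 for Rps4x, and 0.41 and -0.76 for Rps7. These directions turn with the scaling. After quantile normalization 8 of the 11 had 1 sign at both ages (2.39 and 0.52 for Rpl35, 2.07 and 0.55 for Rpl41, 0.32 and 0.49 for Rpl13a, -0.47 and -0.19 for Rps7), and with scaling to the 90th percentile 3 had. With MG15 and MG3 as adult WT cells 2 had, Rpl35 (4.60 and 0.73) and Rpl38 (3.53 and 0.04), and outside the ranges 2 of the 10 measured had. All 11 genes were bright in the cells at 25 weeks, where 6 or more members lay within 2-fold of the brightest gene, and the part of the array range in these values was not tested.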

How the results depend on the processing

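Differences are medians over the members on the log2 scale. For Rhod-ko at 8 weeks over adult WT the 0.44 became 0 with quantile normalization, with scaling to the 90th percentile and with probe sets without a suffix (25 members), 0.75 with group means, 0.71 with the filter at 500 and 0.052 outside the ranges, and 0.38 to 0.79 with 1 cell left out (0.79 without MG1). For Rhod-ko at 25 weeks over adult WT the 0 became -1.19 with the 90th percentile, -0.19 with the filter, -0.15 without the paralogs and -0.14 outside the ranges, and -0.05 to 0 with 1 cell left out. For Rhod-ko at 25 over 8 weeks the -0.43 became 0 with quantile normalization and with probe sets without a suffix, -1.07 with the 90th percentile, -1.17 with the filter and -0.82 without the paralogs, and -0.71 to -0.25 with 1 cell left out (-0.71 without cell 1, -0.65 without cell 8). For rd1 at 5 weeks (0, 0 to 0.14 with 1 cell left out) and at P13 (-0.09, -0.12 to 0) no other setting moved the median beyond the spread between cells. Counts moved further, and those higher and lower were 4 and 1 (8 weeks), 4 and 1 (25 weeks) and 4 and 0 (rd1 at 5 weeks) over adult WT with probe sets without a suffix, with 3 lower at 25 than at 8 weeks. At 25 weeks over adult WT 2 members were lower with quantile normalization, 24 with the 90th percentile, 5 with 1 probe set a gene, 4 with group means, 5 with MG15 and MG3, and 3 outside the ranges, where 0 were higher. Outside the ranges 11 were higher at 8 weeks, 12 lower at 25 than at 8 weeks and 5 higher in rd1 at 5 weeks. Quantile normalization gave 7 higher and 9 lower at 25 over 8 weeks and 1 and 1 at P13. For rd1 at 5 weeks 8 were lower with the 90th percentile and 5 with group means, and 4 were higher over congenic FVB. With 1 cell left out the counts were 19 to 20 and 5 to 9 (8 weeks), 7 to 8 and 3 to 8 (25 weeks, 3 without MG1 or MG16, 5 without A5), 4 to 6 and 20 to 21 (25 over 8 weeks), 9 to 14 and 1 to 4 (rd1 at 5 weeks, 1 without MG1 or A1, 4 without B1 or A5/A6), and 0 to 1 and 0 to 1 (P13). The cause of these changes was not tested. No paired analysis was possible because cell names pair no samples and no test was run. Leaving out cells with other markers could not be done at P13, where it removes all 3 congenic FVB cells. Signals near the floor carry no order.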
